A study of Mus musculus with 15 samples.

Results

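The cytochrome P450 genes of the mouse were followed in RNA sequencing of small intestinal organoids. Members were all protein-coding genes whose symbol is Cyp followed by a digit, apart from Cyp51, the sterol demethylase. Ensembl identifiers of the count table were paired with symbols through the GENCODE annotation of GRCm38. This gave 99 genes of 43629 in the table, in 16 families and 39 subfamilies. Another 16 rows with a Cyp symbol were pseudogenes or antisense transcripts and were left out.

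Cytochrome P450 enzymes are haem proteins of the endoplasmic reticulum or the mitochondrion that add an oxygen atom to fat-soluble molecules. Members of the Cyp1, Cyp2 and Cyp3 families mostly oxidise drugs, plant compounds and polyunsaturated fatty acids, those of the Cyp4 family mostly hydroxylate fatty acids and leukotrienes at the chain end, and the higher-numbered families mostly handle sterols, bile acids, retinoids and vitamin D. Outside the liver, the absorptive enterocyte of the small intestine is among the best-known sites of these enzymes, and nuclear receptors such as the pregnane X receptor (Nr1i2), the constitutive androstane receptor (Nr1i3) and Hnf4a are known regulators of many of them.

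All organoids came from the proximal small intestine of mice on a mixed C57B6/129 background. The 5 WT libraries were grown in ENR medium (EGF, Noggin and RSPO1): replicates 1, 2, 5 and 6 carried APC flox/flox alleles, undeleted, and the naive replicate was a dox naive culture whose inducible CRISPR transgene stayed off. For Apc, lines 1, 2, 5 and 6 had lost both copies of the gene to Cre (Apc delta/delta), 1 library per line. P-Rspo3 held 4 libraries, labelled 15d, 4d, M and F, from cultures in which doxycycline-induced Cas9 had joined Ptprk to Rspo3 (Ptprk-Rspo3), kept as uncloned populations. Both mutant groups were kept in EN medium, without RSPO1. Against WT, medium and genotype therefore cannot be told apart, whereas Apc and P-Rspo3 shared the medium. A further 2 libraries have titles and genotypes that conflict and entered no group. Nothing in the labels says that the P-Rspo3 libraries came from separate animals, so p-values measure the spread between these libraries.

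Total counts were 28902729 to 35528495 per grouped library. Rspo3 had 539 to 1079 counts in P-Rspo3, 0 or 1 in WT and 7 to 57 in Apc. The gene total of Apc covers exons outside the deleted part and checks nothing about the deletion. All 12 enterocyte markers examined fell in Apc, with a summed level of 150 to 183 FPKM (fragments per kilobase of transcript, scaled to library size) against 3723 to 10379 in WT and 2771 to 5968 in P-Rspo3. In bulk RNA, fewer cells of a type and less RNA per cell cannot be told apart. Fibroblast markers summed to at most 0.311 FPKM in any library.

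Of the 99 Cyp genes, 49 reached an FPKM of 0.1 in at least 4 libraries of at least 1 comparison and were tested. The other 50 had at most 43 counts and an FPKM of at most 0.342 in every grouped library. Among these, 9 had no count at all, including the adrenal steroid enzymes Cyp11b1, Cyp11b2 and Cyp21a1. Genes better known from liver or gonad were also at or near the limit of detection. The bile acid enzymes Cyp7a1, Cyp7b1 and Cyp8b1 had at most 1 count in any library, and the steroid enzymes Cyp17a1 and Cyp19a1 at most 2 and 4. A count of at most 3 is read here as not detectable at this depth, and 37 Cyp genes stayed at or under it in every grouped library. Of the retinoic acid hydroxylases, Cyp26a1 and Cyp26c1 had at most 2 counts in any grouped library. Cyp26b1 was low but detected, with 12 to 43 counts in Apc, 2 to 10 in WT and 2 to 3 in P-Rspo3. It did not pass the filter on low values. The 2 alternatives that tested it, no filter and filterByExpr, called it higher in Apc. Without a filter, 10.6% of all genes tested were called higher against WT and 11.1% against P-Rspo3. With filterByExpr these shares were 13.1% and 14.3%. Cyp26b1 passed filterByExpr through the Apc libraries, where it was high, so that call was largely set by the filter and is not separate support. Its log2 fold change was 1.71 against WT and 2.63 against P-Rspo3.

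**Figure D1:**
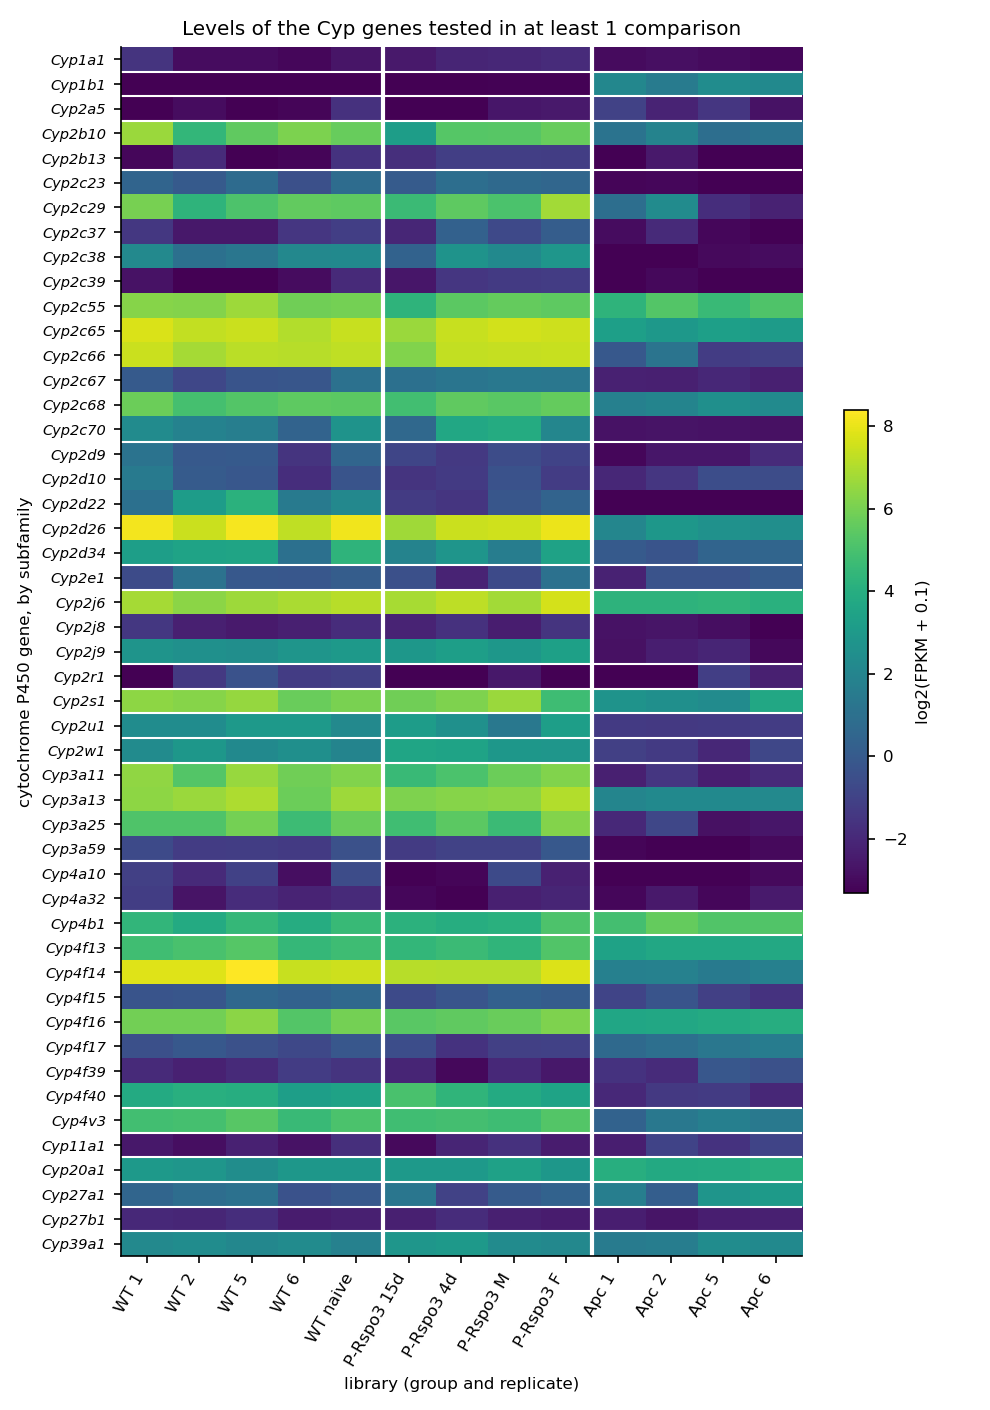
Level of each of the 49 tested Cyp genes (rows, by subfamily) in the 13 grouped libraries (columns), as log2(FPKM + 0.1). WT and P-Rspo3 share a common pattern of bright rows, such as Cyp2d26, Cyp4f14 and Cyp2c65, that is darker in the 4 Apc libraries. The row of Cyp1b1 is brighter in the Apc libraries than in the other groups, although in Apc it does not exceed Cyp2c65.

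The P450 output of WT organoids rested on a few genes. Mean FPKM was at least 1 for 33 Cyp genes, at least 10 for 19 and at least 100 for 5. Cyp2d26 took 14.95% of the summed Cyp FPKM and Cyp4f14, an omega-hydroxylase of leukotriene B4 and vitamin E, 14.2%. They were followed by Cyp2c65 with 10.5%, Cyp2c66 with 9.04% and Cyp2j6 with 6.91%, and the leading 12 genes together held 84.9%. In Apc, 20 genes had a mean of at least 1 FPKM, 6 of at least 10 and 0 of at least 100. There the order was different, with Cyp4b1 first at 20.1%, then Cyp2c55 at 15.6%, Cyp2j6 at 9.95% and Cyp20a1 at 7.88%. Cyp4b1 led in each of the 4 Apc libraries, with 17.9% to 23.7%, and in no library of the other groups.

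Summed over all 99 genes, Cyp FPKM in Apc was 191 ± 21.8 (SD, n = 4), against 1616 ± 279 in WT (SD, n = 5) and 1424 ± 353 for P-Rspo3 (SD, n = 4). WT libraries ranged from 1288 to 1936, P-Rspo3 from 1000.1 to 1864 and Apc from 160 to 207. WT and P-Rspo3 overlapped, and every Apc library lay far below both. The ratio of the means was 8.48 for WT over Apc, 7.47 for P-Rspo3 over Apc and 1.14 for WT over P-Rspo3. As a share of all FPKM in a library, Cyp genes made up 0.221% to 0.338% in WT, 0.174% to 0.321% in P-Rspo3 and 0.0287% to 0.0384% in Apc.

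**Figure D2:**
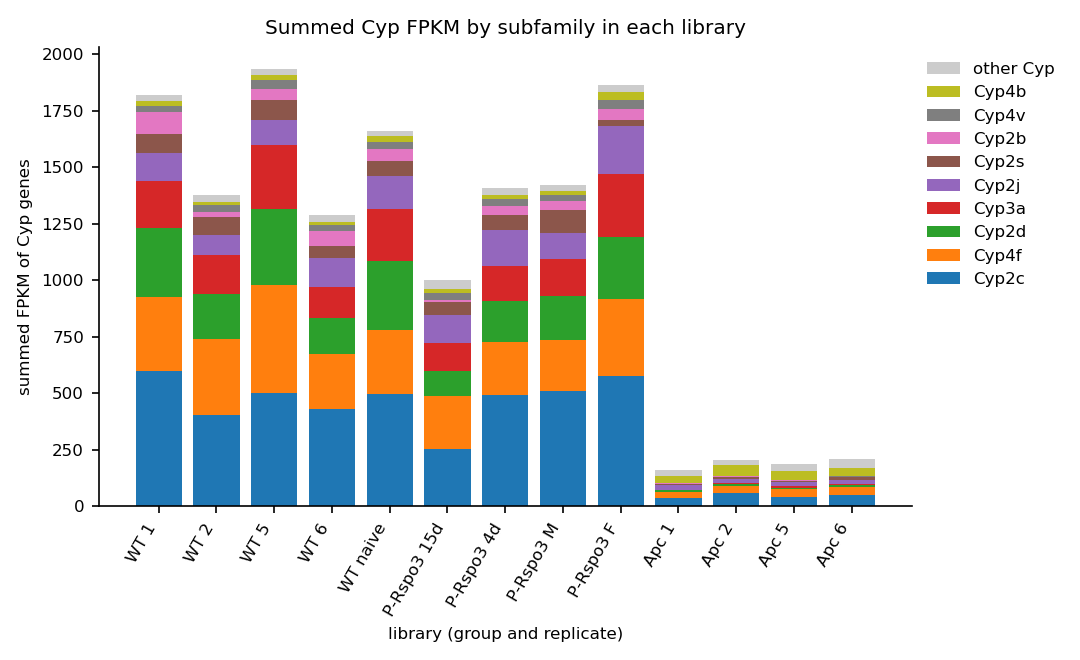
Summed FPKM of the Cyp genes in each of the 13 grouped libraries, stacked by subfamily. The Apc bars reach 160 to 207 FPKM against 1000.1 to 1936 in the other 9 libraries, and Cyp2c, Cyp4f, Cyp2d and Cyp3a make up most of the taller bars.

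The first comparison asked how Cyp genes differ between Apc-deleted and WT organoids. Of the 99 genes, 46 were tested in this comparison, and 33 were lower and 4 higher in Apc (edgeR's quasi-likelihood test, Benjamini-Hochberg adjusted p under 0.05 over all genes tested and an absolute log2 fold change above 1). This was 71.7% lower and 8.7% higher, where over all 16749 genes tested 14.1% were lower and 12.2% higher. The median log2 fold change was -3.54 over the tested Cyp genes and 0.00 over all genes tested. For 31 of the 33 lower genes the CPM values of the groups did not overlap. The share without overlap over all genes tested was not counted, so this number cannot be read as a trait of Cyp genes. Cyp2c37, Cyp2d10, Cyp27a1 and Cyp11a1 were called although their groups overlapped. A gene such as Cyp1b1, which passed the filter on low values only through the group where it was high, had to differ, so these counts describe the tested genes and not the family. Log2 fold changes are those of the counts with TMM scaling and run below the ratio of the FPKM means in Apc, as for Cyp51, whose FPKM was 138 in both groups with a log2 fold change of -0.20 (SE 0.11, adjusted p = 0.127).

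**Figure D3:**
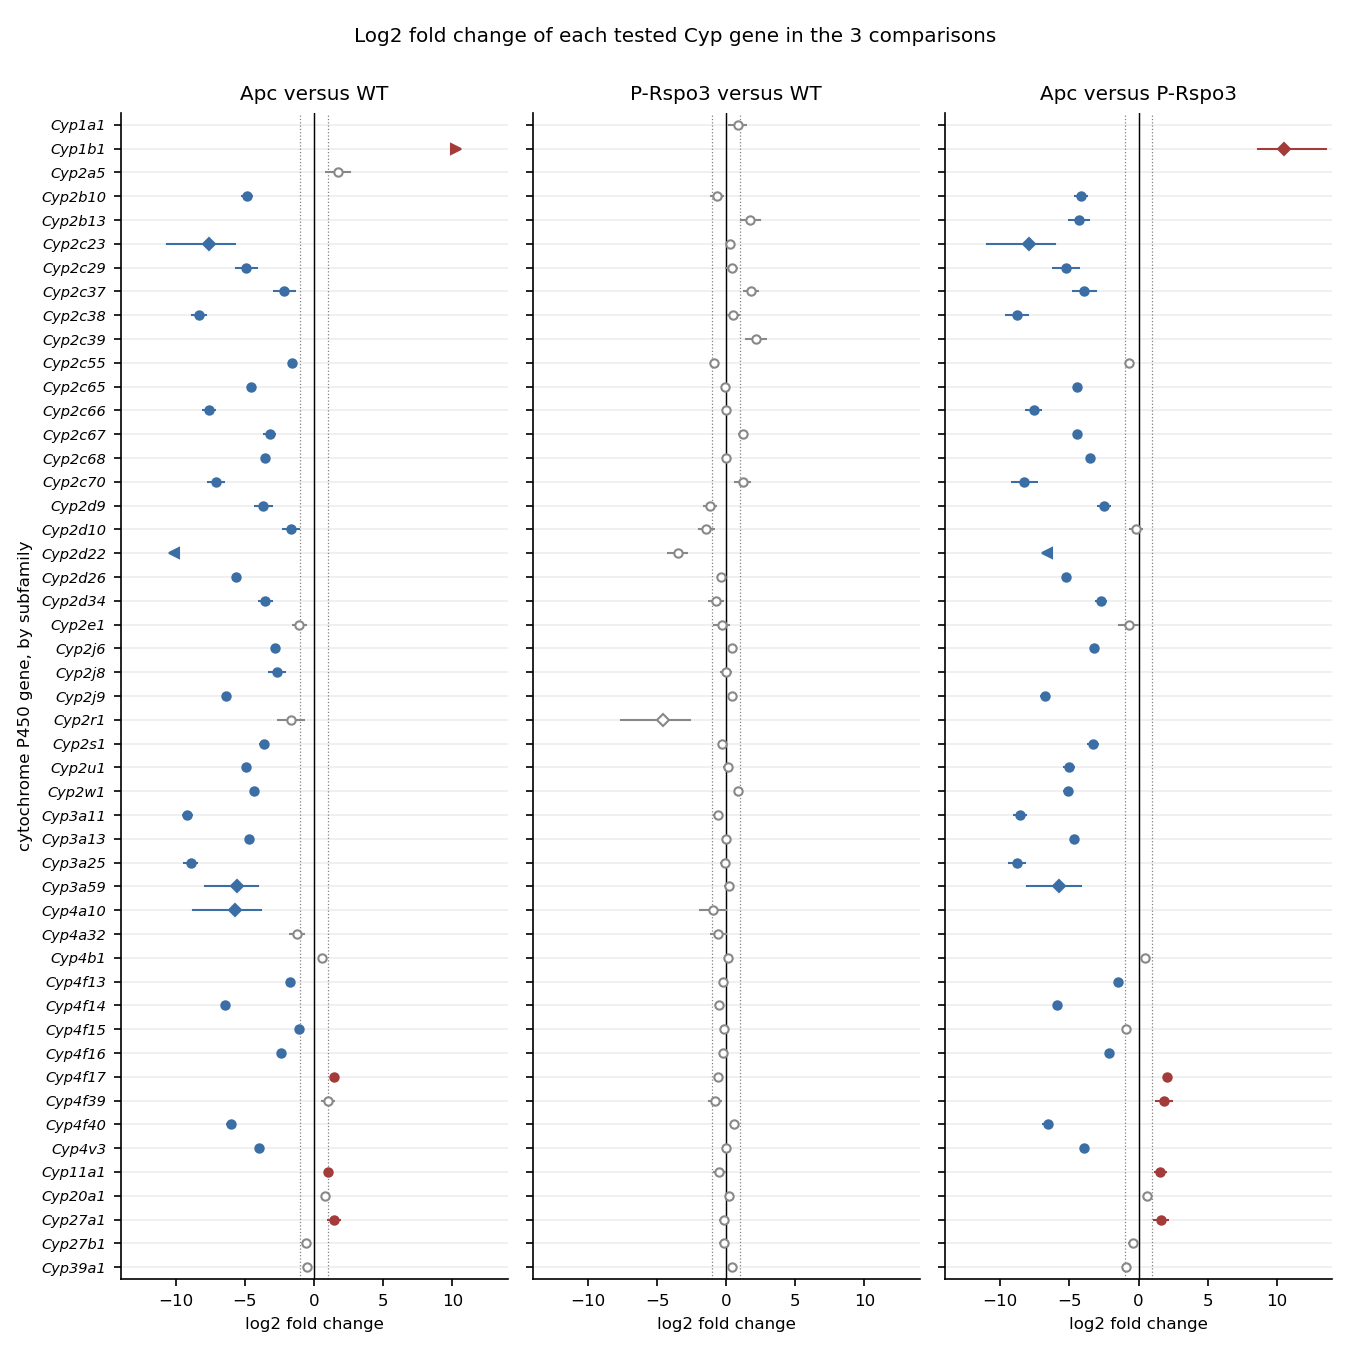
Log2 fold change of each tested Cyp gene in the 3 comparisons, positive where the first-named group is higher; filled markers are called genes (blue lower, red higher) and dotted lines mark a log2 fold change of 1 in either direction. Circles are fitted values with bars of 1 SE, triangles are lower bounds where a group had no count, and diamonds are count ratios with 95% intervals where a group had 1 to 3 counts. Apc lies mostly to the left of both other groups, and no gene was called in P-Rspo3 versus WT.

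Cyp2c, the largest subfamily, holds arachidonic acid epoxygenases and drug-oxidising enzymes and had 15 members, 14 of them in a cluster on chromosome 19 (39007019 to 40187333, GRCm38). All 10 tested Cyp2c genes were lower in Apc. Their summed level averaged 45.8 ± 9.52 FPKM in Apc (SD, n = 4), against 486 ± 74.7 in WT (SD, n = 5) and 458 ± 142 for P-Rspo3 (SD, n = 4), with fitted log2 fold changes that ranged widely between genes. Promoters of the cluster were read from RefSeq on GRCm38.p6, as windows from 250 bases before to 50 after the annotated start. They were searched on both strands for CAAAGTCCA, a binding motif of Hnf4a (reverse complement TGGACTTTG). Whether these letters have a part in the different log2 fold changes of the cluster was not tested. The stretches below show this motif, or its nearest form with 1 base changed, in capitals on the gene's strand. They are those of the 7 most abundant Cyp2c genes that hold one.
Cyp2c55: tgctgcaggcCAGAGTCCAttcagaagat
Cyp2c65: gatgttggaaCAAAGTCCActgggaggag
Cyp2c66: tatgttggaaCAAAGTCCCctgcgaggag
Cyp2c29: atcaaagagaCAAAGTCTAttagagagag
Cyp2c67: atcattgagaCAAAGTCCAtttggaagca
Cyp2c68: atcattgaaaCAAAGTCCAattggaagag
Cyp2c70: aggtcaaactCAAAGTCCAaactctgtgt

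The stretches lie at chr19:39006897-39006925, chr19:39060880-39060908, chr19:39113784-39113812 and chr19:39286966-39286994 on the plus strand and at chr19:39649149-39649177, chr19:39741160-39741188 and chr19:40187332-40187360 on the minus strand, in the order printed. With positions counted from 1 at the 5′ end of the motif, Cyp2c55 carries A3G, Cyp2c66 A9C and Cyp2c29 C8T, and the other 4 match in full. The motif started between 45 and 125 bases before the annotated start in the member promoters that match in full. It was present in 11 of the 76 member promoters in the RefSeq table (14.5%) and in 129 of all 27025 promoters (0.477%). Besides Cyp2c65, Cyp2c67, Cyp2c68 and Cyp2c70, these were Cyp2c40, Cyp2c69, Cyp8b1 and 4 Cyp3a genes, several of them copies of one another. The shorter core CAAAGT, which lies inside the longer motif, was in 46.1% of member promoters and 14.3% of all. A match is a description of the letters and not a measured site, and binding was not measured in these data.

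Cyp2c65, a gut-expressed member of the subfamily, had 212, 161, 174, 132 and 173 FPKM in WT replicates 1, 2, 5, 6 and naive, and 9.62, 7.53, 9.63 and 8.53 in Apc replicates 1, 2, 5 and 6. Its neighbour Cyp2c66 had 179, 111, 144, 139 and 157 FPKM in WT and 0.851, 2.16, 0.325 and 0.371 in Apc. The groups did not overlap for either gene, and the log2 fold change was -4.55 (SE 0.16, adjusted p = 1.03e-08, edgeR) for Cyp2c65 and -7.61 (SE 0.49, adjusted p = 4.08e-07) for Cyp2c66. The difference between these fold changes was not tested, and the transcripts share 20.6% and 20.4% of their 50-base windows with other genes, mostly each other, so reads may be split between them. Cyp2c55, on the other side of Cyp2c65, had the smallest fitted change of the tested Cyp2c genes, a log2 fold change of -1.62 (SE 0.23, adjusted p = 0.000117), from 74.8 ± 17.3 FPKM in WT to 29.6 ± 8.87 in Apc (SD, n = 5 and 4).

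Cyp2c70, the enzyme that makes muricholic acids in mice, had 1.24 to 6.47 FPKM in WT and 0.0434 to 0.0524 in Apc, with a log2 fold change of -7.09 (SE 0.66, adjusted p = 5.70e-06). Cyp2c38 had a log2 fold change of -8.30 (SE 0.58, adjusted p = 7.61e-07), from 1689 counts over the WT libraries to 5 over the Apc libraries. Cyp2c23, an arachidonic acid epoxygenase that lies apart from the cluster, had 452 counts in WT and 2 in Apc, a ratio of 195 (95% exact counting interval 53.7 to 1615). Counting intervals and bounds cover counting error only. Cyp2c29 was uneven within Apc, with 1.78, 4.93, 0.188 and 0.115 FPKM in replicates 1, 2, 5 and 6, against 19.8 to 62.8 in WT, with a log2 fold change of -4.89 (SE 0.83, adjusted p = 0.000429). Cyp2c67, Cyp2c68 and Cyp2c40 share 43.3% to 72.1% of their windows with other genes and are uncertain as single genes, although Cyp2c67 and Cyp2c68 both fell, with log2 fold changes of -3.22 (adjusted p = 0.000104) and -3.57 (adjusted p = 1.18e-07).

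**Figure D4:**
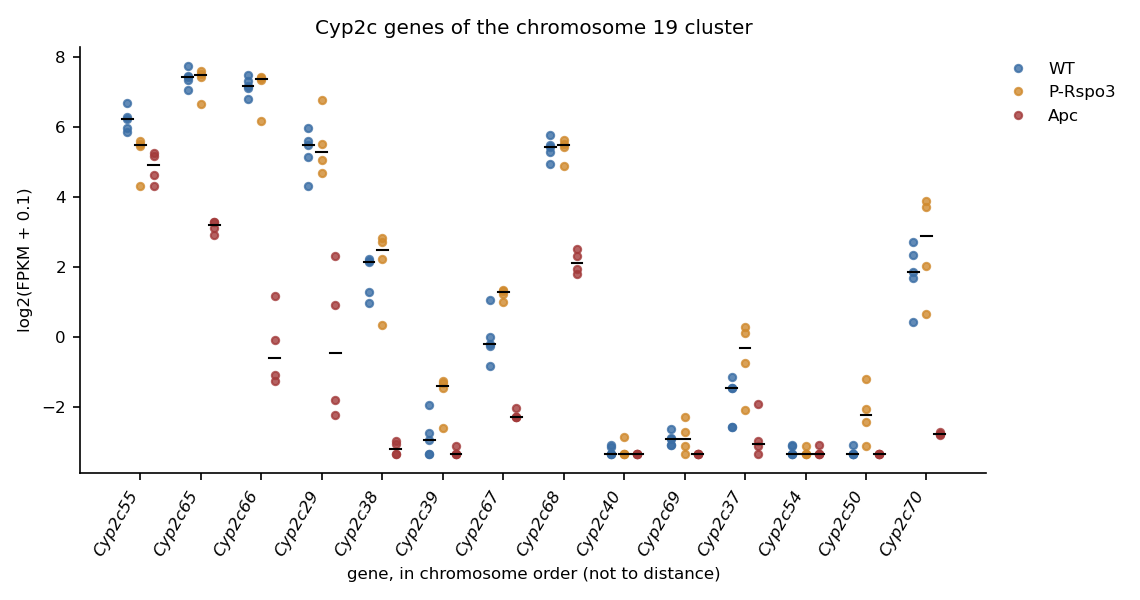
The 14 Cyp2c genes of the chromosome 19 cluster in chromosome order, as log2(FPKM + 0.1), 1 point per library and a black bar at the group median. For the more abundant genes, Apc points lie below WT by very different distances, from Cyp2c55, where the groups come close, to Cyp2c66 and Cyp2c38. The groups overlap for Cyp2c37, and near the floor for Cyp2c39, Cyp2c40, Cyp2c50 and Cyp2c54.

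The Cyp3a subfamily, whose enzymes oxidise drugs, bile acids and steroids, showed the deepest drop of the abundant subfamilies. Its 9 members summed to 207 ± 54.8 FPKM in WT (SD, n = 5) and 4.84 ± 0.442 in Apc (SD, n = 4), a ratio of 42.6. Cyp3a11, the main drug-induced member in mouse, had 87.9, 37.9, 97.0, 57.9 and 72.1 FPKM in the WT libraries and 0.101, 0.260, 0.0962 and 0.166 in the Apc libraries. Every Apc value was far below the lowest WT value, and the log2 fold change was -9.16 (SE 0.42, adjusted p = 4.32e-08, edgeR). Cyp3a25 had 26.1 to 61.7 FPKM in WT, 0.0435 to 0.458 in Apc and a log2 fold change of -8.92 (SE 0.55, adjusted p = 3.14e-07), while Cyp3a59, which shares 24.7% of its windows with Cyp3a25, had 168 counts against 3.

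Cyp3a13, which lies away from the other Cyp3a genes on chromosome 5, kept more of its level. It had 54.1 to 124 FPKM in WT and 3.94 to 4.70 in Apc, with a log2 fold change of -4.67 (SE 0.25, adjusted p = 1.21e-07). Without it, the 8 clustered genes summed to 114 FPKM in WT and 0.400 in Apc, a ratio of 284.0. The promoters of Cyp3a25 and Cyp3a59, which also fell, hold no full Hnf4a motif. Those of Cyp3a16, Cyp3a41a and Cyp3a41b hold it, and these genes had at most 2 counts in any grouped library. The promoter of Cyp3a11 holds the full motif on the gene's strand (chr5:145879945-145879973, minus strand). It is shown in capitals because Cyp3a11 had the largest fitted fall against WT of the Cyp genes with counts in both groups. The part of the motif in that fall was not tested.
Cyp3a11: aagagagtacCAAAGTCCAgtgatgcaaa

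Cyp2d genes include the counterparts of the human debrisoquine hydroxylase. The subfamily, 8 genes on chromosome 15, summed to 261 ± 77.0 FPKM in WT (SD, n = 5) and 7.19 ± 1.41 in Apc (SD, n = 4), and all 5 tested genes were lower. Cyp2d26, the most abundant Cyp gene of WT, had 289, 176, 306, 156 and 281 FPKM there and 4.10, 7.23, 5.94 and 5.36 in Apc, with no overlap and a log2 fold change of -5.65 (SE 0.30, adjusted p = 1.13e-07). Cyp2d22 had 1.89, 8.80, 17.9, 2.78 and 4.37 FPKM in WT and was at 0 in all 4 Apc libraries. Its 3830 WT counts against none put the difference at at least 1101-fold, taking 3 counts over the group as the floor. Cyp2d10 shares 40.5% of its windows with other genes, its groups overlapped, and its log2 fold change was -1.68 (SE 0.65, adjusted p = 0.0458). Its call was lost when WT replicate 1, 2, 5 or naive, or Apc replicate 1, 2 or 6, was left out.

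The Cyp4 family hydroxylates fatty acids and eicosanoids, and its members moved in different directions. Cyp4f, 9 genes, summed to 335 ± 89.0 FPKM in WT (SD, n = 5) and 32.7 ± 3.15 in Apc (SD, n = 4), and of the 7 genes tested 5 were lower and 1 was higher. Cyp4f14 had 227, 225, 338, 171 and 183 FPKM in WT and 3.37, 3.40, 2.63 and 3.34 in Apc. The groups did not overlap, and the log2 fold change was -6.46 (SE 0.27, adjusted p = 2.49e-08). Cyp4f40 had 9.29 to 16.5 FPKM in WT and 0.149 to 0.310 in Apc, a log2 fold change of -6.05 (SE 0.29, adjusted p = 6.31e-08). Cyp4f16 and Cyp4f13 had log2 fold changes of -2.43 (SE 0.21) and -1.76 (SE 0.19), with adjusted p of 3.23e-06 and 1.88e-05, and were among the 6 Cyp genes still above 10 FPKM in Apc. Cyp4f17, in the same chromosome 17 cluster, went the other way, from 0.487 to 0.824 FPKM in WT to 1.48 to 2.91 in Apc, a log2 fold change of 1.42 (SE 0.25, adjusted p = 0.000574) that fell to 0.89 in limma on log2(FPKM + 1), under the fold threshold. Cyp4f39, the omega-hydroxylase of skin ceramides, had 0.199 ± 0.0824 FPKM in WT (SD, n = 5) and 0.466 ± 0.316 in Apc (SD, n = 4) and was not called (log2 fold change 1.01, SE 0.48, adjusted p = 0.0957).

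Further fatty acid hydroxylases were lower. Cyp4v3, the counterpart of the gene mutated in Bietti crystalline dystrophy, fell from 31.5 ± 5.79 FPKM in WT to 2.38 ± 0.876 in Apc (SD, n = 5 and 4), a log2 fold change of -4.01 (SE 0.28, adjusted p = 7.34e-07). Cyp2u1, a hydroxylase of long-chain fatty acids, had 4.49 to 8.12 FPKM in WT and 0.284 to 0.330 in Apc, a log2 fold change of -4.93 (SE 0.25, adjusted p = 7.79e-08). Cyp4a10, a known target of the fatty acid receptor Ppara, was low throughout, with 121 counts in WT and 2 in Apc (ratio 52.2, 95% exact counting interval 14.1 to 436). Without WT replicate 1, 2, 5 or naive it no longer passed the filter on low values and was not tested, and limma on log2(FPKM + 1) did not call it.

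The epoxygenases Cyp2j6 and Cyp2j9 both fell. Cyp2j6 had 83.5 to 140 FPKM in WT and 17.4 to 20.0 in Apc, a log2 fold change of -2.84 (SE 0.14, adjusted p = 8.49e-08), and had rank 5 among the Cyp genes of WT and rank 3 in Apc by mean FPKM. Cyp2j9 had 5.46 to 7.81 FPKM in WT and 0.0207 to 0.129 in Apc, a log2 fold change of -6.38 (SE 0.32, adjusted p = 7.21e-08). Both sets of libraries were separate.

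Further genes of the Cyp2 family were lower. Cyp2b10, the classical target of the constitutive androstane receptor, had 98.3, 21.3, 46.4, 67.3 and 51.0 FPKM in WT and 2.12, 3.68, 1.80 and 2.10 in Apc, a log2 fold change of -4.84 (SE 0.44, adjusted p = 4.71e-06). Cyp2s1, known mostly from epithelia outside the liver, had 52.7 to 92.0 FPKM in WT and 5.0015 to 12.9 in Apc, a log2 fold change of -3.63 (SE 0.33, adjusted p = 4.93e-06). Cyp2w1, whose human counterpart is best known from colorectal tumours, had 3.84 to 7.23 FPKM in WT and 0.151 to 0.465 in Apc, a log2 fold change of -4.33 (SE 0.33, adjusted p = 1.48e-06).

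A few Cyp genes rose or held their level in Apc. Cyp1b1, a target of the dioxin receptor Ahr that oxidises oestrogens and polycyclic hydrocarbons, had no count in any WT library and 4.24, 2.80, 5.06 and 4.62 FPKM in Apc. With 3154 counts against none it was at least 1219-fold higher. Cyp1a1, the best-known Ahr target, stayed at or below 0.236 FPKM in every group and did not pass the filter in this comparison, with 40 counts in WT and 12 in Apc, and Cyp1a2 had at most 1 count. The Ahr repressor Ahrr rose with a log2 fold change of 3.18 (SE 0.41, adjusted p = 6.52e-05), and Ahr went from 5.02 to 10.7 FPKM with a log2 fold change of 0.81 (SE 0.10, adjusted p = 4.43e-05), under the fold threshold.

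Markers of cells outside the epithelium were low but not equal between these groups. The 3 endothelial markers summed to 0.278 to 0.365 FPKM in WT and 1.17 to 2.04 in Apc, where Cdh5 rose, Pecam1 fell and Kdr was at 0 in both, and 4 immune markers summed to 0.763 to 1.42 in WT and 3.65 to 10.1 in Apc, where Cd68 rose and was the one tested. The 5 fibroblast markers summed to 0 to 0.0388 FPKM in WT and 0.179 to 0.311 in Apc, where Pdgfra rose and was the one tested and Dcn was at 0. Their part in the Cyp1b1 result was not tested.

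Cyp4b1, an enzyme of lung and gut epithelium that activates some plant toxins, had 20.8, 14.4, 22.6, 15.1 and 23.9 FPKM in WT and 29.6, 48.8, 37.8 and 37.1 in Apc. The groups were separate in FPKM but overlapped in CPM, and the log2 fold change of 0.61 (SE 0.19, adjusted p = 0.0177) was under the fold threshold. Cyp20a1, an orphan member with no settled substrate, had 5.28 to 7.89 FPKM in WT and 13.7 to 16.1 in Apc, with a log2 fold change of 0.81 (SE 0.11, adjusted p = 0.000119) that was also under it. In limma on log2(FPKM + 1) Cyp20a1 was called higher.

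Among the sterol enzymes, Cyp27a1, the mitochondrial sterol hydroxylase, had 1.31, 1.73, 1.997, 0.672 and 0.879 FPKM in WT and 3.13, 1.03, 6.77 and 8.30 in Apc. Replicate 2 of Apc lay inside the WT range, and the gene was lower than in WT in line 2 and higher in the other 3 lines. The fitted log2 fold change was 1.47 (SE 0.51, adjusted p = 0.0298). Cyp11a1, the cholesterol side-chain cleavage enzyme that is also known from intestinal glucocorticoid synthesis, was close to the floor, with 29 counts in WT and 63 in Apc (log2 fold change 1.03, SE 0.33, adjusted p = 0.0194). Both calls were lost when WT replicate 1 or WT replicate 6 was left out, which brought the number of higher Cyp genes from 4 to 2. Cyp11a1 also lost its call without WT replicate 2 or Apc replicate 2, and Cyp27a1 without the naive library or Apc replicate 5 or 6. DESeq2 and limma did not call Cyp11a1, and neither gene was called with the line as a replicate block. Cyp39a1, an oxysterol hydroxylase, had 4.42 ± 0.645 FPKM in WT (SD, n = 5) and 3.90 ± 1.13 in Apc (SD, n = 4) and was not called.

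The vitamin D enzymes were all low. Cyp27b1, the activating hydroxylase, had 0.134 ± 0.0403 FPKM in WT (SD, n = 5) and 0.0887 ± 0.0204 in Apc (SD, n = 4) and was not called (adjusted p = 0.0969, edgeR). Cyp24a1, the inactivating hydroxylase, had at most 3 counts in any library. Vdr, the vitamin D receptor, had 82.3 ± 5.16 FPKM in WT and 3.48 ± 0.929 in Apc (SD, n = 5 and 4), a log2 fold change of -4.81 (SE 0.19, adjusted p = 1.96e-08).

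**Figure D5:**
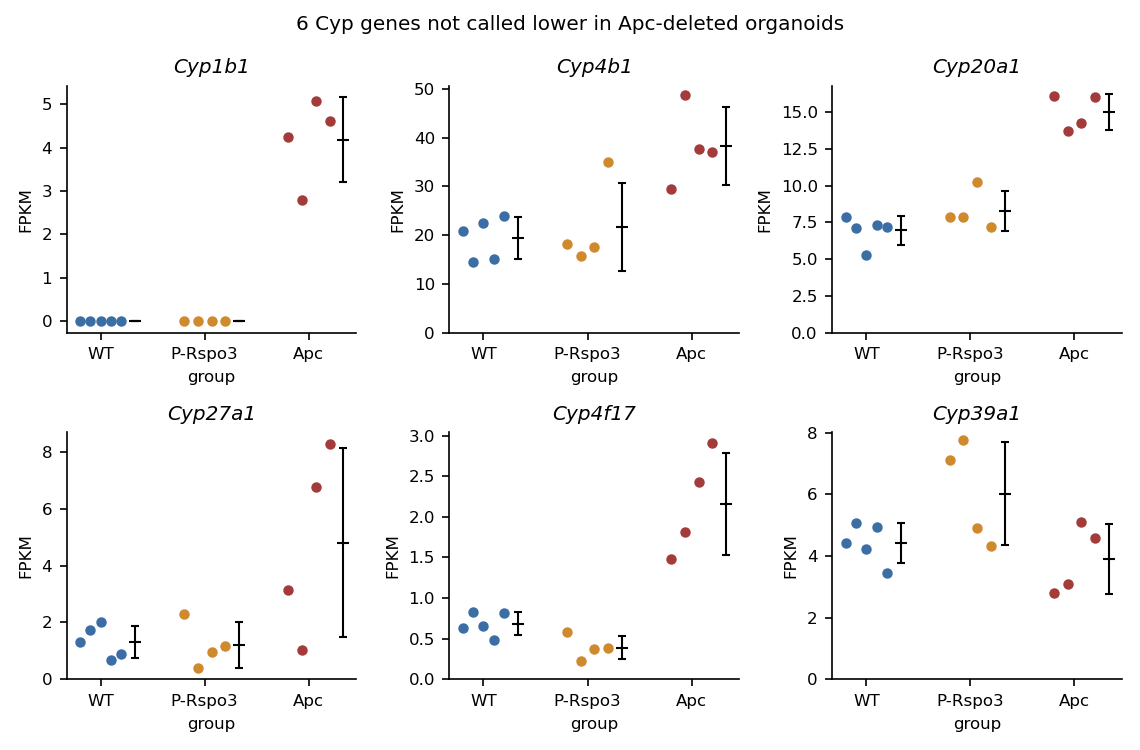
FPKM of 6 Cyp genes that were not called lower in Apc against WT, 1 point per library by group, with the mean and SD (n = 5, 4 and 4) beside the points. Cyp1b1 is near 0 outside Apc, Cyp20a1 and Cyp4f17 are separate from WT, and one Apc point of Cyp27a1 lies inside the WT range.

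Genes that regulate P450 expression were examined as a list of 28, of which 26 were tested. In Apc 15 were lower and 3 higher than in WT, with a median log2 fold change of -1.29. Over all genes tested 14.1% were lower and 12.2% higher, with a median of 0.00, so the 3 higher genes do not stand out from that share. Nr1i3 fell most, from 47.9 ± 11.2 FPKM in WT to 0.214 ± 0.109 in Apc (SD, n = 5 and 4), a log2 fold change of -7.18 (SE 0.31, adjusted p = 3.39e-08, edgeR). Nr1i2 kept more of its level, with 17.8 to 21.9 FPKM in WT and 6.04 to 7.25 in Apc (log2 fold change -1.86, SE 0.10, adjusted p = 1.22e-07). Hnf4a fell from 246 ± 16.2 to 155 ± 12.2 FPKM (log2 fold change -1.27, SE 0.06, adjusted p = 8.59e-08), while its relative Hnf4g fell from 92.6 ± 6.44 to 9.38 ± 0.514 (log2 fold change -3.59, SE 0.09, adjusted p = 1.49e-09). Ppara, the receptor behind Cyp4a induction, had a log2 fold change of -5.58 (SE 0.29, adjusted p = 9.94e-08). The 3 higher genes were Ahrr and the retinoic acid receptors Rarb and Rarg.

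The proteins that feed electrons to P450 enzymes or work beside them were examined as a second list, with 11 genes tested. In Apc 7 were lower and 0 higher than in WT, with a median log2 fold change of -1.21, where 14.1% of all genes tested were lower and 12.2% higher. Por, the reductase that serves all microsomal P450 enzymes, had 105 to 152 FPKM in WT and 43.0 to 53.4 in Apc (log2 fold change -1.75, SE 0.14, adjusted p = 1.86e-06). Ephx2, the soluble hydrolase that opens the epoxides made by Cyp2c and Cyp2j enzymes, fell from 63.2 ± 21.5 FPKM in WT to 0.530 ± 0.286 in Apc (SD, n = 5 and 4), a log2 fold change of -7.18 (SE 0.44, adjusted p = 2.77e-07). Fdxr and Fdx1, which serve the mitochondrial enzymes, had log2 fold changes of -0.26 (adjusted p = 0.0506) and -0.59 (adjusted p = 0.00128) and were not called.

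The fall of the Cyp genes and that of enterocyte markers went together in these libraries, and their part in each other was not tested. The enterocyte list had a median log2 fold change of -8.82 in Apc against WT, and all 5 goblet markers and 3 of 4 Paneth markers fell as well. The stem cell markers Lgr5, Ascl2 and Smoc2 rose and Olfm4 fell.

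The second comparison set Apc against P-Rspo3, both grown without RSPO1. It shares the Apc libraries with the first and is given beside it for that reason. Of the 42 Cyp genes tested, 29 were lower and 5 higher in Apc (69.0% and 11.9%), where 13.3% of all 16456 genes tested were lower and 13.4% higher. The median log2 fold change was -3.95 over the tested Cyp genes and 0.00 over all genes. Among the genes with counts in both groups, the lowest log2 fold changes were -8.81 (SE 0.64, adjusted p = 4.68e-06, edgeR) for Cyp3a25, -8.80 (SE 0.85, adjusted p = 2.50e-05) for Cyp2c38 and -8.56 (SE 0.51, adjusted p = 1.53e-06) for Cyp3a11.

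The leading WT genes had P-Rspo3 levels far above those of Apc. In replicates 15d, 4d, M and F, Cyp2d26 had 106, 174, 191 and 263 FPKM and Cyp4f14 had 139, 138, 136 and 221. Cyp2c65 had 99.6, 172, 193 and 182 FPKM. No Apc library reached the lowest of these values, and the log2 fold changes were -5.24 (SE 0.33, adjusted p = 2.04e-06), -5.90 (SE 0.24, adjusted p = 2.18e-07) and -4.48 (SE 0.24, adjusted p = 7.92e-07) in that order. Cyp2d22 had 277 counts in P-Rspo3 and 0 in Apc, at least 100.3-fold lower in Apc.

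Cyp1b1 had 2 counts over the 4 P-Rspo3 libraries and 3154 in Apc, a ratio of 1452 (95% exact counting interval 401.5 to 11990). Cyp1a1 went the other way, with 56 counts in P-Rspo3 and 12 in Apc. It did not pass the filter with all libraries, and the 8 alternatives that tested it all called it lower, with log2 fold changes of -2.79 to -2.37. No Apc library exceeded 0.0376 FPKM for Cyp1a1. Where the FPKM filter was kept, the gene could therefore pass only through libraries of other groups. Calls made that way were largely set by the filter and are not separate support. Cyp4f17 was again higher and separate (log2 fold change 2.07, SE 0.29, adjusted p = 0.000239). Cyp4f39, Cyp27a1 and Cyp11a1 were called higher with overlapping groups, at 1.86 (SE 0.65), 1.64 (SE 0.58) and 1.57 (SE 0.48), with adjusted p of 0.0335, 0.0373 and 0.0188. Without P-Rspo3 replicate 4d all 3 lost their call, which left 2 higher genes. Without Apc replicate 5 the calls of Cyp27a1 and Cyp4f39 were lost, and without P-Rspo3 replicate M those of Cyp11a1 and Cyp27a1, which left 3 higher genes each time. Cyp27a1 and Cyp4f39 also lost their calls without Apc replicate 6 or P-Rspo3 replicate F, Cyp11a1 without Apc replicate 2 and Cyp4f39 without P-Rspo3 replicate 15d. limma did not call Cyp11a1 or Cyp4f39. Cyp2c55, called lower against WT, was not called here, with 19.8, 43.9, 48.8 and 45.4 FPKM in P-Rspo3 and 19.8, 38.0, 24.5 and 36.2 in Apc (log2 fold change -0.70, SE 0.30, adjusted p = 0.0773).

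The third comparison asked whether Cyp genes differ between P-Rspo3 and WT, and it shares libraries with both others. Of the 47 Cyp genes tested, 0 were called in either direction by edgeR's quasi-likelihood test, where 0.00625% of all 15992 genes tested were called higher and 0.0% lower. The median log2 fold change was -0.06 over the tested Cyp genes and 0.00 over all genes, and adjusted p ran from 0.117 to 1.0. At an unadjusted p under 0.05 there were 14 of the 47 tested Cyp genes, 7 higher and 7 lower, against 2159 of all 15992 genes tested (13.5%). This share was larger among the Cyp genes, and the difference between the shares was not tested. DESeq2 called 1 Cyp gene higher (Cyp2c67) and 2 lower (Cyp2d22 and Cyp2r1), where over all genes it called 55 higher (0.344%) and 173 lower (1.08%). limma called 0 Cyp genes, and 3 higher and 4 lower over all genes.

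Cyp2d22 had the smallest p, with 0.310, 0.251, 0.779 and 1.21 FPKM in P-Rspo3 replicates 15d, 4d, M and F against 1.89 to 17.9 in WT. The groups were separate, and the log2 fold change was -3.52 (SE 0.76, adjusted p = 0.117, edgeR). Without the naive WT library the adjusted p was 0.0473, in a fit that called 166 of all genes higher (1.05%) and 100 lower (0.635%). Cyp2w1 had 11.97, 10.95, 7.36 and 7.13 FPKM in P-Rspo3 and 3.84 to 7.23 in WT, with overlap (log2 fold change 0.83, SE 0.21, adjusted p = 0.147). Cyp2c67 had 1.92, 2.28, 2.46 and 2.38 FPKM in P-Rspo3, and 0.898, 0.469, 0.737, 0.774 and 1.99 in WT, where the naive library alone reached the P-Rspo3 values. Its log2 fold change was 1.22 (SE 0.36, adjusted p = 0.191), and 1.65 (adjusted p = 0.00479) without that library. The labels do not say which line or animal the naive culture came from. The other 4 WT libraries are of the Apc flox lines, so line and genotype cannot be told apart for them against P-Rspo3.

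Cyp2c55 was separate and lower in P-Rspo3, at 19.8 to 48.8 FPKM against 57.5 to 102 in WT, but was not called (log2 fold change -0.91, SE 0.27, adjusted p = 0.190). Cyp2r1, a vitamin D hydroxylase, had 60 counts in WT and 2 in P-Rspo3 (ratio 23.8, 95% exact counting interval 6.32 to 201). One WT library had none either, so the groups overlapped, and it was not called (adjusted p = 0.162). Neither the 24 regulators nor the 11 partner genes tested gave a call in this comparison.

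Within a group, the same libraries were often the extremes for several Cyp genes. For the 19 genes with a WT mean of at least 10 FPKM, the coefficient of variation was 16.8% to 58.6% in WT (median 23.6%), 16.2% to 71.7% in P-Rspo3 (median 33.6%) and 5.87% to 128.0% in Apc (median 27.9%). In WT, 10 of the 19 were highest in replicate 5 and 12 lowest in replicate 6, and in P-Rspo3, 15 were highest in replicate F and 10 lowest in replicate 15d. The summed enterocyte markers had the same extremes, with 10379 FPKM in WT replicate 5 and 3723 in replicate 6, and 5968 in P-Rspo3 replicate F and 2771 in replicate 15d. In Apc the extremes differed, with 9 of the 19 Cyp genes highest in replicate 2 and 8 lowest in replicate 1, while the enterocyte sum was highest in replicate 1 (183 FPKM) and lowest in replicate 6 (150 FPKM). The part of these markers in the spread of the Cyp genes was not tested.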

How the data were processed

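Polyadenylated RNA of 15 organoid cultures was sequenced. The authors aligned reads with STAR to GRCm38 after FastQC and deposited 2 tables, raw HTSeq 0.6.0 read counts by gene and FPKM values estimated by Cufflinks 2.2.1. The annotation release and strand setting are not given in the sources used here, so values of genes that overlap or closely resemble another are uncertain. Groups followed the labels, and 2 libraries with conflicting labels were left out. Members, gene lists and the rule for named genes were chosen with earlier results of these data known.

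Symbols came from GENCODE vM21 (42548 of 43629 genes paired). Counts were tested across all genes with edgeR 4.0.16 in R 4.3.3 (TMM, glmQLFit and glmQLFTest, earlier form of the test) in a separate fit of each pair of groups, after requiring FPKM 0.1 or more in 4 or more libraries of the fit. Calls required both an adjusted p (Benjamini-Hochberg) below 0.05 and a log2 fold change beyond 1 in either direction. Named genes are the 12 called members of highest FPKM, the 10 of largest change in each direction with separate groups, the 5 of smallest p for P-Rspo3 versus WT, the 12 of highest WT level and members of functional lists. Fit and test were checked on simulated counts. Against a group with no count, the bound took 3 counts over the group. Promoters of 76 members came from RefSeq (GRCm38.p6), and shared windows of 50 bases were counted over annotated transcripts. Replicates differed by more than sampling noise (smallest chi-square per gene 20.5).

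Same-numbered WT and Apc libraries are the same lines by their labels. Their deviations from the group means correlated with a median of 0.0983 (0.0017 to 0.1904, 4 pairs), against -0.0263 for the 12 other pairs. Alternatives were DESeq2 1.42.0 and its size factors, limma 3.58.1 on log2(FPKM + 1), the newer form of the test, no filter or filterByExpr, 1 fit of the 3 groups, removal of single libraries, flox-line WT only, the conflicting libraries placed by genotype, the adjusted p alone and the line as a replicate block. Figures were drawn with matplotlib 3.10.9.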

Additional observations from a re-analysis of the deposited data

Results flagged for a closer look

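Each named Cyp gene was examined within each group for a library that stood apart from the rest by the gap to its nearest neighbour relative to the range of the group (Dixon's 95% critical value). Of 68 groups examined, 6 had such a library, and chance gives about 0.05 of groups. Cyp4f14 was high in P-Rspo3 replicate F, with 220.9 FPKM against 135.9 to 139.1 in the other 3, and low in Apc replicate 5, with 2.63 FPKM against 3.34 to 3.40. P-Rspo3 replicate 15d was low for Cyp2c66, with 71.9 FPKM against 161.5 to 172.5, and for Cyp2c55, with 19.8 FPKM against 43.9 to 48.8. Cyp2c67 was high in the naive WT library, with 1.99 FPKM against 0.469 to 0.898, and in Apc replicate 5, with 0.149 FPKM against 0.107 to 0.109.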

How the results depend on the processing

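The number of lower Cyp genes stayed between 25 and 38 in Apc versus WT and between 23 and 37 in Apc versus P-Rspo3 over the alternatives run. None of the 20 named genes of either comparison changed direction there. Cyp2d10, not among them and not called in Apc versus P-Rspo3, had log2 fold changes of -0.59 to 0.18 in that comparison. In P-Rspo3 versus WT, genes with small changes also changed direction, such as Cyp2c29 (-0.29 to 0.62). The 4 higher genes in Apc versus WT became 7 without the FPKM filter, 5 with filterByExpr and 2 to 4 when single libraries were left out. Among the lower genes of that comparison, Cyp2c37 lost its call without WT replicate 1, 6 or naive or Apc replicate 1, 5 or 6, Cyp2j8 without WT replicate 1, 2, 6 or naive, and Cyp4f15 without the naive library or Apc replicate 6. The 5 higher genes in Apc versus P-Rspo3 became 7 without the FPKM filter, 6 with filterByExpr, 3 in limma and 2 to 5 when single libraries were left out. In P-Rspo3 versus WT, DESeq2 gave 1 higher and 2 lower (55 and 173 over all genes), WT of the flox lines only gave 1 and 1 (166 and 100 over all genes, against 1 and 0 with all libraries), and leaving out single libraries gave 0 to 1 in each direction. With the line as a replicate block, Apc versus WT gave 3 higher and 30 lower genes, and Cyp11a1, Cyp27a1, Cyp2c37, Cyp2d10 and Cyp4f15 lost their call while Cyp2a5 gained one. P-Rspo3 shares no line number with the other groups, so no paired fit was made there. Of 380 refits of the 20 named genes in Apc versus WT, 379 kept the call, as did 319 of 320 in Apc versus P-Rspo3. These genes were picked among called genes for high level or large separate change in the same libraries, so keeping the call was likely beforehand. Of all 37 called Cyp genes in Apc versus WT, 27 kept the call in limma and 31 without WT replicate 1. In P-Rspo3 versus WT, 7 of 84 refits passed the threshold, for Cyp2d22, Cyp2r1 and Cyp2c67. WT of the flox lines only and WT without the naive library are the same fit, entered under both names in these refits against WT. The limma scale moved the median of all genes to 0.17 in Apc versus WT and 0.16 in Apc versus P-Rspo3. The cause of these differences was not tested. The 37 genes with at most 3 counts in every grouped library were not detectable at this depth.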

Other observations

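Both libraries whose title and genotype label conflict were set beside the groups as single values. The library titled LIPO, labelled dox naive and grown in ENR medium, had a summed Cyp level of 1952 FPKM, and of 25 named Cyp genes 11 lay within the WT range, 13 within the P-Rspo3 range and 1 within the Apc range. The library titled NAIVE_F, labelled Ptprk-Rspo3 and grown in EN medium, had 1713 FPKM, with 16, 15 and 1 of the 25 genes within those ranges. Ranges of different groups overlap, so a gene can lie in more than one of them.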
